A study of Mus musculus with 20 samples.

Results

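The genes described here are 38 genes of glycolysis, of the fates of its end products and of the pentose phosphate pathway, measured in mouse regulatory T (Treg) cells before and during stimulation with or without an inhibitor of protein prenylation. They were chosen by name from textbook knowledge of the pathway, with earlier results of these data known. They were found by matching the gene symbols of the deposited expression table. All 38 were found among 21928 symbols on the array, each with 1 probe set, and none of these probe sets carried the table's mark for cross-hybridization. After probe sets at or below their array's median on all or all but 1 of the arrays had been left out, 36 of the 38 stood among 12462 genes tested; Eno2 and Ldhb fell below that limit.

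Treg cells, defined by the transcription factor Foxp3, are the CD4 T cells that hold immune responses in check. The cells were CD4+YFP+ cells of a CD44lo naive-type gate, called cTreg in the labels, which were sorted from the spleen and pLN of Foxp3YFP-Cre mice on the C57BL/6J strain. YFP there reports Foxp3 and is carried with Cre by the mice of every group, so no group without the transgene was compared. There were 7 groups on 20 Affymetrix arrays, with 3 arrays in each group except GGTI_18h, which had 2. The group DMSO_0h is labelled with DMSO and names no stimulation. DMSO_18h and DMSO_48h were activated through CD3 and CD28 by antibodies (10 ug/ml), with IL-2 added at 200 U/ml, and taken after 18 or 48 h. FTI_18h, FTI_48h, GGTI_18h and GGTI_48h received the same stimulation after 2 h with the inhibitor that the labels call FTI or GGTI, and full compound names and doses were not stated there. No group was cultured without stimulation, so time in culture and stimulation cannot be told apart in comparisons with DMSO_0h.

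Glycolysis takes up glucose, phosphorylates it, splits it and oxidizes the fragments to pyruvate, which is either reduced to lactate and exported or burned in mitochondria. The pentose phosphate pathway branches off after the first phosphorylation and yields NADPH and ribose for growth. T cells that are activated through their antigen receptor raise this flux, with Myc, mTORC1 signalling and the hypoxia-inducible factor Hif1a as known drivers, and in Treg cells the degree of glycolysis is tied to the state of activation. FTI and GGTI are the usual abbreviations of inhibitors of farnesyl and geranylgeranyl transfer, the lipid attachments that bring small GTPases to membranes.

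Values are the deposited log2 expression values. They were compared between groups for the same probe set only, never between genes, because probe sets differ in brightness. The summed levels of marker lists, given near the end of the Results, are an exception. A gene is said to have risen or fallen when limma's moderated test gave an adjusted p under 0.05 after Benjamini-Hochberg adjustment over all 12462 genes, and "2-fold" means a log2 change of at least 1 beside that. The labels do not say whether arrays of a group came from separate mice or cultures, and the p-values reflect only array-to-array spread, part or all of which may be technical. Replicate numbers printed below are not from the labels. They follow the order of the samples and serve only to name arrays. The small number of arrays limits the precision, and the variance of GGTI_18h rests largely on the other groups. Genes of the labelled cell type were well above background: Foxp3 had group means between 10.67 and 11.20, and Cd3e between 10.89 and 11.37. At the start Cd44 stood at 7.22, while Il2ra, which encodes CD25, stood at 5.04, below the median of the array's negative-control probe sets (5.64). In such bulk RNA, a lower value from fewer cells of a type and one from less RNA per cell cannot be told apart.

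Promoter sequences of 6 genes are shown because members of the pathway moved together in the results that follow. Hk2, Pgk1, Pgam1 and Slc16a1 are shown as genes that fell under GGTI at 48 h, Eno1 as the neighbouring enzyme gene that did not pass the test, and Pdk2 as the gene that rose. They were picked after their values had been seen, among windows that lie wholly outside the gene. Each is the 250 bases before a RefSeq transcription start on build GRCm38.p6, written in the gene's direction in lower case. Capitals mark the letters of 3 motifs on either strand: CACGTG, the E-box bound by Myc and its partners, and ACGTG and GCGTG, the core of the element bound by hypoxia-inducible factors. The word ACGTG is contained in CACGTG, so an E-box always counts as both.
Hk2, chr6:82774455-82774704, minus strand: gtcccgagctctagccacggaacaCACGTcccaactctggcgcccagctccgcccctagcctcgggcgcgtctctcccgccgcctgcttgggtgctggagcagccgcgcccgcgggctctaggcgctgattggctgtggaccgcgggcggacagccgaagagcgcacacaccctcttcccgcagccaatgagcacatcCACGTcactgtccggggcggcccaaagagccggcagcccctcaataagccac
Pgk1, chrX:106186850-106187099, plus strand: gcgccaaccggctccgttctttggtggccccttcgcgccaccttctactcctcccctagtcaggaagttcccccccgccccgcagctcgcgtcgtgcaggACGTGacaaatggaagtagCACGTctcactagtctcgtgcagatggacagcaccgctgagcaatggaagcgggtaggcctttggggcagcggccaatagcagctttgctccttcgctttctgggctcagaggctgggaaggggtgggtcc
Pgam1, chr19:41911621-41911870, plus strand: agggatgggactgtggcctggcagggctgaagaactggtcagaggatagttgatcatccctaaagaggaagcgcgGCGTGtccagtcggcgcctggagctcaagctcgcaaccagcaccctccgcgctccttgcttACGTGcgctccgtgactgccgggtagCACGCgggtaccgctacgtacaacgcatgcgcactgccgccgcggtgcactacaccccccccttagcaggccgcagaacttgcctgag
Slc16a1, chr3:104638414-104638663, plus strand: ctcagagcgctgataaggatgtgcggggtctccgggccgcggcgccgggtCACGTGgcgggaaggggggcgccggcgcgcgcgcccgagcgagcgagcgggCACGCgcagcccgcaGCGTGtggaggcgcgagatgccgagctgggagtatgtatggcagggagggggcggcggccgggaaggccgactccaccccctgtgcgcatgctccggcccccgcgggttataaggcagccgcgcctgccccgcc
Eno1, chr4:150236458-150236707, plus strand: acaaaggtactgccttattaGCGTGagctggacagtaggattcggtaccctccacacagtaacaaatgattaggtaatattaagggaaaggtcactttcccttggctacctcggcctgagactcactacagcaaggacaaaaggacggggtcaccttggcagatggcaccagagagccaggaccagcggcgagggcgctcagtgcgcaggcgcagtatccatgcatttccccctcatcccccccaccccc
Pdk2, chr11:95041372-95041621, minus strand: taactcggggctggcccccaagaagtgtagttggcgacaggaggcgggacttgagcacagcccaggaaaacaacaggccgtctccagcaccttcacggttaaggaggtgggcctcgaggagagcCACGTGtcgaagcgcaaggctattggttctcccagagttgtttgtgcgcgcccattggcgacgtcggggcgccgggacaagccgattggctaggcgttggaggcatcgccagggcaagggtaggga

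The Hk2 window held ACGTG at 2 places and Pgk1 at 2 places. The Pgam1 window held ACGTG once and GCGTG at 2 places, and the Slc16a1 window held 1 E-box and GCGTG at 2 places. The first Eno1 window held GCGTG once and neither of the other words. Eno1 windows 2 and 3, which overlap and do not lie wholly outside the gene, held GCGTG at the same 2 places. The Pdk2 window held 1 E-box. Of 57 windows found for 37 of the 38 genes, 12.3% held CACGTG, 35.1% held ACGTG and 52.6% held GCGTG. Among 12283 windows of genes tested the shares were 8.2%, 21.2% and 43.1%, and among all 32851 windows in the table they were 6.0%, 16.6% and 28.2%. The median GC content was 59.2% in the windows of the 38 genes and in those of all genes tested, and 52.4% over all windows. Other genes that fell under GGTI at 48 h differed in their windows wholly outside the gene. Tpi1, Gpi1 and Pkm window 1 held none of the words, and Pfkl, Tkt and Pgd window 2 held GCGTG only. Slc2a1 and Pdk3 held both ACGTG and GCGTG. A match is only a run of letters. A gene that rose and genes that fell both carry them, and some genes that fell carry none in such a window.

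Most of the pathway was higher in the stimulated DMSO groups than at the start. At 18 h, 26 of the 36 genes tested were higher than in DMSO_0h and 3 were lower, 11 of the 29 by 2-fold, where 60.9% of all genes passed the test (33.7% higher and 27.2% lower). At 48 h, 31 were higher and 3 lower, 19 of them by 2-fold, with 74.7% of all genes passing (38.5% higher and 36.2% lower). The arrays of the groups did not overlap for 27 of the 36 genes at 18 h and 32 at 48 h, beside 59.6% and 74.6% of all genes tested. The median log2 change of the 36 genes was 0.48 at 18 h and 0.93 at 48 h, while the median over all genes tested was 0.00 and -0.02. Centring each array on its own median moved the median of all genes to 0.11 and 0.15, and moved the share of higher genes among all genes called from 55.3% to 65.8% at 18 h and from 51.5% to 65.1% at 48 h. With that centring 27 and 31 of the 36 genes were higher.

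**Figure D1:**
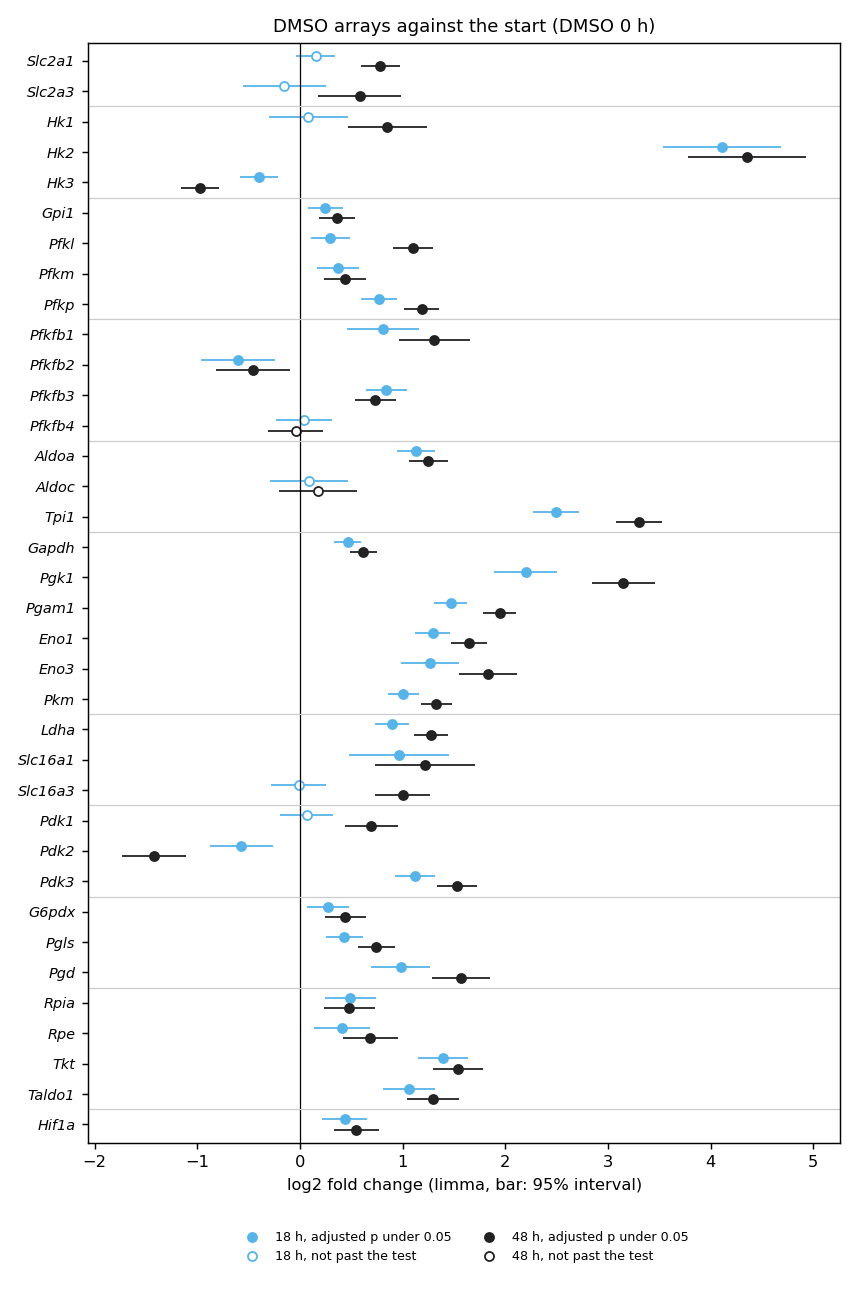
Change of each of the 36 genes tested in DMSO arrays at 18 h (blue) and 48 h (black) against DMSO_0h, as log2 fold change on the x axis with its 95% interval, in pathway order from glucose uptake to Hif1a. Filled points passed limma's test at an adjusted p under 0.05 and open points did not, and Hk2, Tpi1 and Pgk1 lie farthest to the right.

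Among the genes of entry, Slc2a1, the main glucose transporter of activated T cells, read 10.56, 10.14 and 10.49 on the arrays of DMSO_0h, 10.51, 10.59 and 10.54 at 18 h, and 11.09, 11.21 and 11.23 at 48 h. All 3 arrays at 48 h lay above every earlier one. Its change was 0.15 at 18 h (adjusted p = 0.153), and it had risen by 0.78 ± 0.09 (SE) at 48 h (adjusted p = 3.51e-07). Hk2, the inducible hexokinase that traps glucose in the cell, read 6.00, 4.19 and 5.29 at the start, then 9.10, 9.40 and 9.31 at 18 h and 9.50, 9.59 and 9.45 at 48 h. Its start level (mean 5.16) was below the negative-control median of 5.64, so the fitted rises of 4.11 and 4.35 are limited by background. Hk1, the constitutive hexokinase, was not called at 18 h (0.08, adjusted p = 0.717) and had risen by 0.85 at 48 h (adjusted p = 0.000436). Hk3, the hexokinase best known from myeloid cells, fell by 0.40 at 18 h and by 0.98 at 48 h (adjusted p = 0.000677 and 1.3e-08), while 2 of 3 myeloid marker genes tested also fell at both times and the other, Cst3, rose by 0.60 and 0.49.

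Phosphofructokinase carries out the first step particular to glycolysis, and its 3 subunit genes all rose. Pfkp, the platelet-type subunit, read 9.80, 9.81 and 9.71 at the start, 10.55, 10.56 and 10.53 at 18 h, and 10.90, 11.01 and 10.98 at 48 h. The 3 groups did not overlap, and the rises from the start were 0.77 and 1.19. Pfkl, the liver-type subunit, read 7.44, 7.72 and 7.58, then 7.79, 7.88 and 7.95, then 8.55, 8.81 and 8.68, so that most of its rise came after 18 h (0.30 by 18 h and a further 0.80 ± 0.09 by 48 h, adjusted p = 3.76e-06). The call at 18 h was lost with only the arrays compared in the fit and without DMSO_0h replicate 1. Of the Pfkfb enzymes, which make or remove the sugar phosphate that activates phosphofructokinase, Pfkfb3 rose early. Its arrays read 7.22, 7.41 and 7.39 at the start, 8.13, 8.29 and 8.13 at 18 h and 8.13, 8.23 and 7.87 at 48 h. Pfkfb1 also rose, by 0.81 and 1.31, from a start level (5.31) below the negative-control median. Pfkfb2 fell by 0.60 at 18 h and by 0.45 at 48 h from start arrays at 7.19, 7.62 and 6.76. Without DMSO_0h replicate 2 the values were -0.39 (adjusted p = 0.0449) and -0.24 (adjusted p = 0.182); the call at 48 h was lost under 7 of the alternatives tried and that at 18 h with array quality weights. Pfkfb4 was not called at either time (0.04 and -0.04).

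Several enzymes of the splitting and payoff steps rose by 2-fold. Tpi1, the triose phosphate isomerase, rose by 2.50 at 18 h and 3.30 at 48 h, and Pgam1, the phosphoglycerate mutase, by 1.47 and 1.95. Pgk1, which makes the first ATP of glycolysis, read 5.81, 5.99 and 5.37 at the start, 7.65, 8.0 and 8.11 at 18 h, and 8.74, 9.02 and 8.86 at 48 h. The groups did not overlap, and the rises were 2.20 ± 0.15 and 3.15 ± 0.15 from a start mean of 5.72 that lay close to the negative-control median. Eno1, the enolase that was chosen for values on every array after its results had been seen, read 9.85, 10.16 and 9.78, then 11.18, 11.28 and 11.21, then 11.53, 11.61 and 11.59. It rose in both intervals, by 1.29 to 18 h and by a further 0.35 to 48 h. Aldoa, the main aldolase, read 9.61, 9.55 and 9.80, then 10.56, 10.93 and 10.87, then 10.87, 10.98 and 10.87, so that its rise of 1.13 was reached by 18 h and the further 0.12 to 48 h was not called (adjusted p = 0.324). Eno3, Pkm and Gapdh rose by 1.83, 1.33 and 0.62 by 48 h. The brain-type aldolase Aldoc was not called (0.09 and 0.17).

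Genes for lactate and for the mitochondrial gate moved at different times. Ldha, which makes lactate, rose by 0.90 and 1.28, and the transporter gene Slc16a1 by 0.96 and 1.22. The start arrays of Slc16a1 read 8.18, 6.74 and 7.94, and without replicate 2, the low one, the rises were 0.52 and 0.78 and still called. Slc16a3, the lactate exporter known as MCT4, read 7.57, 7.50 and 7.20 at the start, 7.30, 7.42 and 7.52 at 18 h, and 8.31, 8.59 and 8.36 at 48 h. Arrays at 0 and 18 h overlapped (-0.01, adjusted p = 0.952), and the rise of 1.01 ± 0.13 between 18 and 48 h was the only 2-fold change of a tested pathway gene in that interval. The Pdk kinases shut the pyruvate dehydrogenase complex. Pdk3 rose by 1.12 and 1.53 and Pdk1 by 0.69 at 48 h, while Pdk2 read 7.68, 7.97 and 7.49 at the start, 7.01, 7.09 and 7.33 at 18 h, and 6.18, 6.22 and 6.47 at 48 h. Pdk2 fell in each interval, by 0.57 and by 0.85, without overlap of the arrays.

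All 7 pentose phosphate genes rose at both times. In the oxidative arm, Pgd, which yields the second NADPH, read 7.74, 7.50 and 7.18 at the start, 8.13, 8.58 and 8.66 at 18 h and 8.92, 9.15 and 9.06 at 48 h, a rise of 1.57 ± 0.14 in all. G6pdx, the gate of the pathway, rose by 0.27 and 0.44, and its call at 18 h was lost under 5 of the alternatives tried. In the non-oxidative arm, which rearranges sugars and links back to glycolysis, Tkt, the transketolase, read 7.41, 7.73 and 7.33, then 8.70, 8.87 and 9.09, then 8.99, 9.03 and 9.07. Its rise of 1.40 was reached by 18 h, and the further 0.14 was not called. Taldo1 rose by 1.30 at 48 h, and the epimerase gene Rpe and the isomerase gene Rpia by 0.69 and 0.48; the call of Rpe at 18 h was lost without DMSO_0h replicate 1. Hif1a, the regulator among the 38 genes, read 9.23, 9.16 and 9.28, then 9.58, 9.77 and 9.64, then 9.64, 9.85 and 9.83, and was 0.55 ± 0.10 above the start at 48 h.

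Between 18 and 48 h in DMSO, 18 of the 36 genes rose and 2 fell, where 29.1% of all genes passed the test (16.4% higher and 12.6% lower; 73.7% of those called were higher after centring, against 56.5%). The genes that had not been called at 18 h but had risen by 48 h were Slc2a1, Slc2a3, Hk1, Slc16a3 and Pdk1, which rose by 0.63, 0.73, 0.77, 1.01 and 0.63 between the times. For Slc2a3 this call was lost without DMSO_48h replicate 2, and its call above the start without that array or DMSO_0h replicate 1. Hk3 and Pdk2 were the genes that fell. The pathway genes that were called above the start but not between the times included Hk2 (0.25), Pfkfb3 (-0.11), Aldoa, Slc16a1 (0.26), Tkt and Hif1a (0.11).

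**Figure D2:**
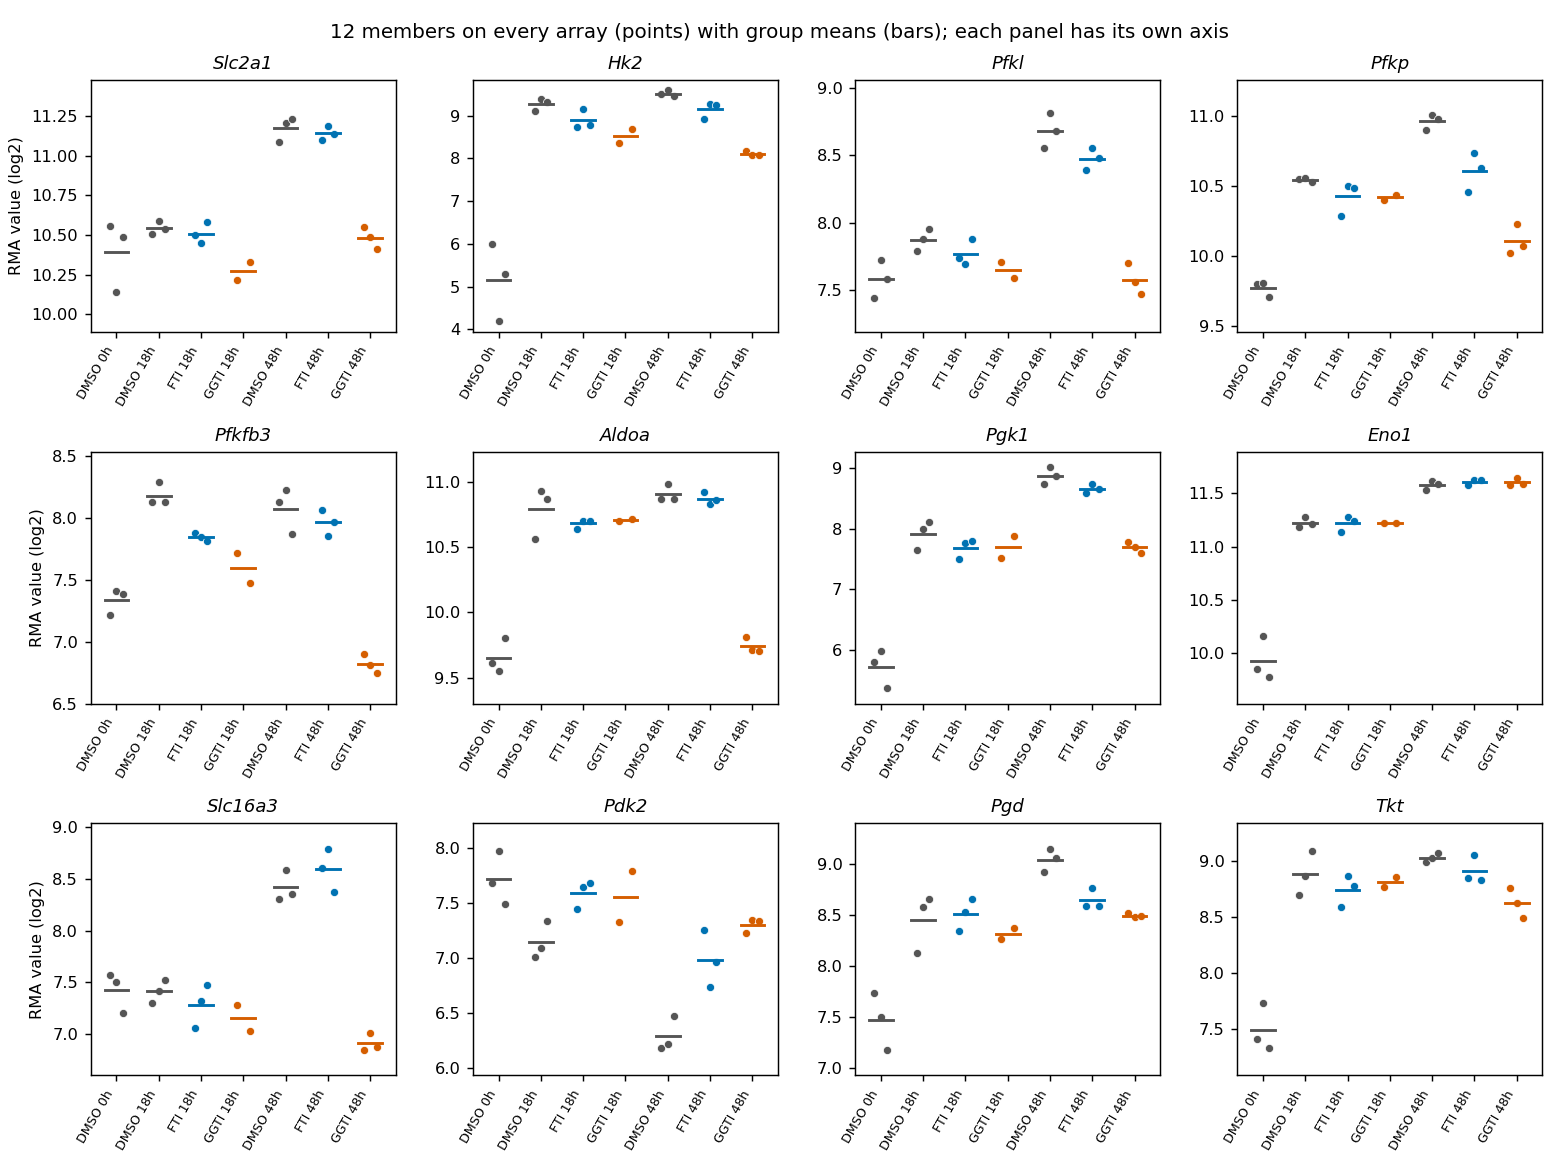
Deposited log2 values of 12 of the named genes on each array, by group, with 1 point for each array and a bar at the group mean; each panel has its own y axis, since levels of different probe sets are not comparable. In GGTI_48h all 3 arrays lie below those of DMSO_48h for Slc2a1, Hk2, Pfkl, Pfkp, Pfkfb3, Aldoa, Pgk1, Slc16a3, Pgd and Tkt. They lie above those of DMSO_48h for Pdk2 and overlap them for Eno1.

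Under GGTI at 48 h, most of the glycolytic genes were lower than in DMSO of the same time. Of the 36 genes tested 20 fell and 1 rose, 9 of the 21 by 2-fold, where 40.3% of all genes passed the test (21.9% lower and 18.4% higher). The median change of the 36 genes was -0.37, against -0.01 over all genes tested. Centring the arrays gave 22 lower and 1 higher. The DMSO_48h arrays enter both this comparison and that of stimulation, so the values of a gene in both are not independent. By role group, 1 of 2 glucose transporters, 1 of 3 hexokinases and 3 of 4 genes of the isomerase and phosphofructokinase step fell. So did 1 of 4 Pfkfb enzymes, 2 of 3 genes of aldolase and triose isomerase, and 5 of 6 lower glycolytic genes. All 3 lactate genes tested and 2 of 3 Pdk kinases fell. In the pentose phosphate pathway, 1 of 3 oxidative and 1 of 4 non-oxidative genes fell, and Hif1a was not called. With 21.9% of all genes lower, 1 gene called in a group of 2 to 4 does not set that group apart. The arrays of GGTI_48h and DMSO_48h did not overlap for 24 of the 36 genes, where 55.2% of all genes tested did not overlap.

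At the entry, Slc2a1 read 10.55, 10.49 and 10.41 in GGTI_48h, below the 11.09 to 11.23 of DMSO_48h, and fell by 0.69 ± 0.09 (adjusted p = 6.12e-06). Slc2a3, the high-affinity transporter, changed by -0.27 and was not called (adjusted p = 0.294). Hk2 read 8.17, 8.08 and 8.09 against 9.45 to 9.59 and was 2.63-fold lower (log2 -1.40 ± 0.28, adjusted p = 0.000462). The other 2 hexokinases were not called, Hk1 at 0.11 with a 95% interval from -0.28 to 0.50 and Hk3 at 0.04.

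Of the phosphofructokinase subunits, Pfkl read 7.70, 7.56 and 7.47 against 8.55 to 8.81 in DMSO_48h and was 2.14-fold lower (log2 -1.10 ± 0.09, adjusted p = 2.54e-08). Pfkp read 10.02, 10.23 and 10.07 against 10.90 to 11.01 and fell by 0.85 ± 0.08 (adjusted p = 1.39e-07). The muscle-type subunit Pfkm was not called (-0.17, adjusted p = 0.171), and the isomerase gene Gpi1 fell by 0.27. Pfkfb3, the Pfkfb enzyme with the strongest activating side, read 6.90, 6.81 and 6.75 against 7.87 to 8.23 and was 2.38-fold lower (log2 -1.25 ± 0.10, adjusted p = 9.13e-09). Pfkfb1, Pfkfb2 and Pfkfb4 were not called, at -0.30, -0.13 and -0.05, although the arrays of Pfkfb1 did not overlap between the groups.

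In the splitting and payoff steps, Aldoa read 9.81, 9.71 and 9.70 against 10.87 to 10.98 and was 2.25-fold lower (log2 -1.17 ± 0.09, adjusted p = 8.29e-09). Pgk1 read 7.78, 7.70 and 7.60 against 8.74 to 9.02 and was 2.27-fold lower (log2 -1.18 ± 0.15, adjusted p = 3.23e-06). For both genes the groups did not overlap. Eno3 fell by 1.10, Tpi1 by 0.99, Pgam1 by 0.93, Pkm by 0.61 and Gapdh by 0.33. Eno1, which stands between Pgam1 and Pkm in the pathway, did not share this: it read 11.58, 11.64 and 11.59 in GGTI_48h and 11.53, 11.61 and 11.59 in DMSO_48h, a difference of 0.03 with a 95% interval from -0.15 to 0.20 (adjusted p = 0.846). Its sister gene Eno3 is best known as the enolase of muscle. Aldoc was not called either, at 0.04.

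At the exits, Slc16a3 had the largest change of the 36 genes. It read 6.85, 7.01 and 6.88 in GGTI_48h against 8.31 to 8.59 in DMSO_48h and was 2.84-fold lower (log2 -1.51 ± 0.13, adjusted p = 3.3e-08). Slc16a1 fell by 1.16 ± 0.23 and Ldha by 0.75 ± 0.08 (adjusted p = 0.000543 and 5.01e-07). Pdk2 went the other way: it read 7.22, 7.34 and 7.33 against 6.18 to 6.47 and was 2.01-fold higher (log2 1.00 ± 0.15, adjusted p = 2.31e-05). Pdk1 and Pdk3 fell by 0.47 and 0.45. The 3 kinase genes for the same complex thus did not move in 1 direction.

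The pentose phosphate genes moved less. Pgd read 8.52, 8.48 and 8.49 against 8.92 to 9.15 and fell by 0.55 ± 0.14 (adjusted p = 0.0032). Tkt read 8.76, 8.63 and 8.49 against 8.99 to 9.07 and fell by 0.40 ± 0.12 (adjusted p = 0.00946), a call that was lost without GGTI_48h replicate 3. The changes of G6pdx (0.03), Pgls (-0.02), Rpia (0.00), Rpe (-0.30) and Taldo1 (0.10) did not pass the test. Hif1a read 9.48, 9.52 and 9.60 against 9.64 to 9.85, without overlap, and its change of -0.24 ± 0.10 was not called (adjusted p = 0.0743).

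At 18 h, with 2 arrays of GGTI_18h, few changes under GGTI passed the test, among the pathway genes as over all genes. The median change of the 36 genes was -0.12, against -0.01 over all genes tested, with 25 changes negative and 11 positive. Of the 36 genes 1 fell and none rose, where 5.94% of all genes passed the test (2.08% lower and 3.86% higher), and 6 had an unadjusted p under 0.05. The arrays did not overlap for 15 of the 36 genes, beside 31.7% of all genes. The gene that fell was Pfkfb3, which read 7.72 and 7.48 in GGTI_18h against 8.13, 8.29 and 8.13 in DMSO_18h (log2 -0.58 ± 0.11, adjusted p = 0.00304); the call was lost when only the arrays of both groups entered the fit and without GGTI_18h replicate 2. Hk2 read 8.35 and 8.68 against 9.10 to 9.40 without overlap, but its change of -0.75 ± 0.31 did not pass the test (adjusted p = 0.179). Aldoa read 10.70 and 10.71 against 10.56 to 10.93, and Slc16a3 read 7.28 and 7.03 against 7.30 to 7.52 (adjusted p = 0.744 and 0.36). The remaining named genes stood at 10.22 and 10.33 for Slc2a1, 7.71 and 7.59 for Pfkl, 10.40 and 10.44 for Pfkp, and 7.51 and 7.88 for Pgk1, and none was called. Pdk2 (7.32 and 7.79), Pgd (8.27 and 8.37), Tkt (8.77 and 8.86), Hif1a (9.31 and 9.58) and Eno1 (11.22 on both arrays) were not called either.

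The difference between the GGTI effects at 48 h and at 18 h was tested itself, as an interaction. It passed the test for 13 of the 36 genes, all with a more negative effect at 48 h, where 9.51% of all genes passed (4.54% in that direction and 4.97% in the other). The median interaction was -0.33 for the 36 genes and -0.02 over all genes tested. The interaction was -1.25 ± 0.19 for Slc16a3 (adjusted p = 0.000339) and -1.08 ± 0.13 for Aldoa (adjusted p = 3.73e-05). For Eno3 it was -0.99, for Pgk1 -0.95 and for Pfkl -0.87, and the call of Pgk1 was lost without GGTI_18h replicate 2. For Hk2 (-0.65), Slc2a1 (-0.42), Slc16a1 (-0.80) and Pdk2 (0.60) it did not pass the test, nor did it for any pentose phosphate gene. Because these values share the arrays of DMSO_48h and GGTI_48h with the comparison at 48 h, they are not separate evidence for the decrease there.

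Between 18 and 48 h under GGTI itself, 7 of the 36 genes fell and 2 rose, where 21.8% of all genes passed the test (9.18% lower and 12.6% higher); with the arrays centred 4 fell and 2 rose. Aldoa fell by 0.97 ± 0.10 (adjusted p = 1.57e-06) and Pfkfb3 by 0.78 ± 0.11 (adjusted p = 3.89e-05), and these calls held without any single array. Hk1 rose by 1.12 ± 0.21 and Eno1 by 0.38 ± 0.09, the latter not called without GGTI_18h replicate 1. Slc16a3 changed by -0.24 and was not called (adjusted p = 0.25), and Pgk1 by 0.00. Leaving out GGTI_18h replicate 1 left 3 calls, and leaving out GGTI_18h replicate 2 or GGTI_48h replicate 3 left 5.

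Compared with the start, a comparison added after the data had been seen, GGTI_48h cells were above DMSO_0h for 22 of the 36 genes and below it for 5, where 68% of all genes passed the test (36.2% higher and 31.9% lower). After centring, 65.4% of all genes called were higher, against 53.1%. The median change was 0.36, beside 0.93 for DMSO_48h against the same start arrays. Some genes stood near their start level and were not called: Slc2a1 (0.09), Pfkl (0.00), Aldoa (0.08) and Gpi1 (0.09). Leaving out 1 array at a time gave -0.04 to 0.17 for Slc2a1, -0.07 to 0.07 for Pfkl, 0.03 to 0.16 for Aldoa and 0.06 to 0.14 for Gpi1, none of them called. Slc16a1 was not called either (0.07), but without DMSO_0h replicate 2 it was below the start, at -0.37 (adjusted p = 0.00856), so its place against the start rests on that array. Such a miss does not show that levels were equal: the 95% interval was from -0.19 to 0.19 for Pfkl and from -0.10 to 0.27 for Aldoa. Pfkfb3 and Slc16a3 were below the start, at -0.52 ± 0.10 and -0.51 ± 0.13 (adjusted p = 0.000123 and 0.00197). Others were well above the start in these cells. Hk2 stood at 2.96 above the start and Pfkfb1 at 1.01, both limited by background in DMSO_0h. Tpi1 stood at 2.31 above the start, Pgk1 at 1.97, Eno1 at 1.67 and Taldo1 at 1.40. Tkt stood at 1.14, Pdk3 at 1.07, and Pgd and Pgam1 at 1.02 each. Pdk2 was below the start (log2 -0.42, adjusted p = 0.0175), beside -1.42 in DMSO_48h, and the call was lost under 4 of the alternatives tried.

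**Figure D3:**
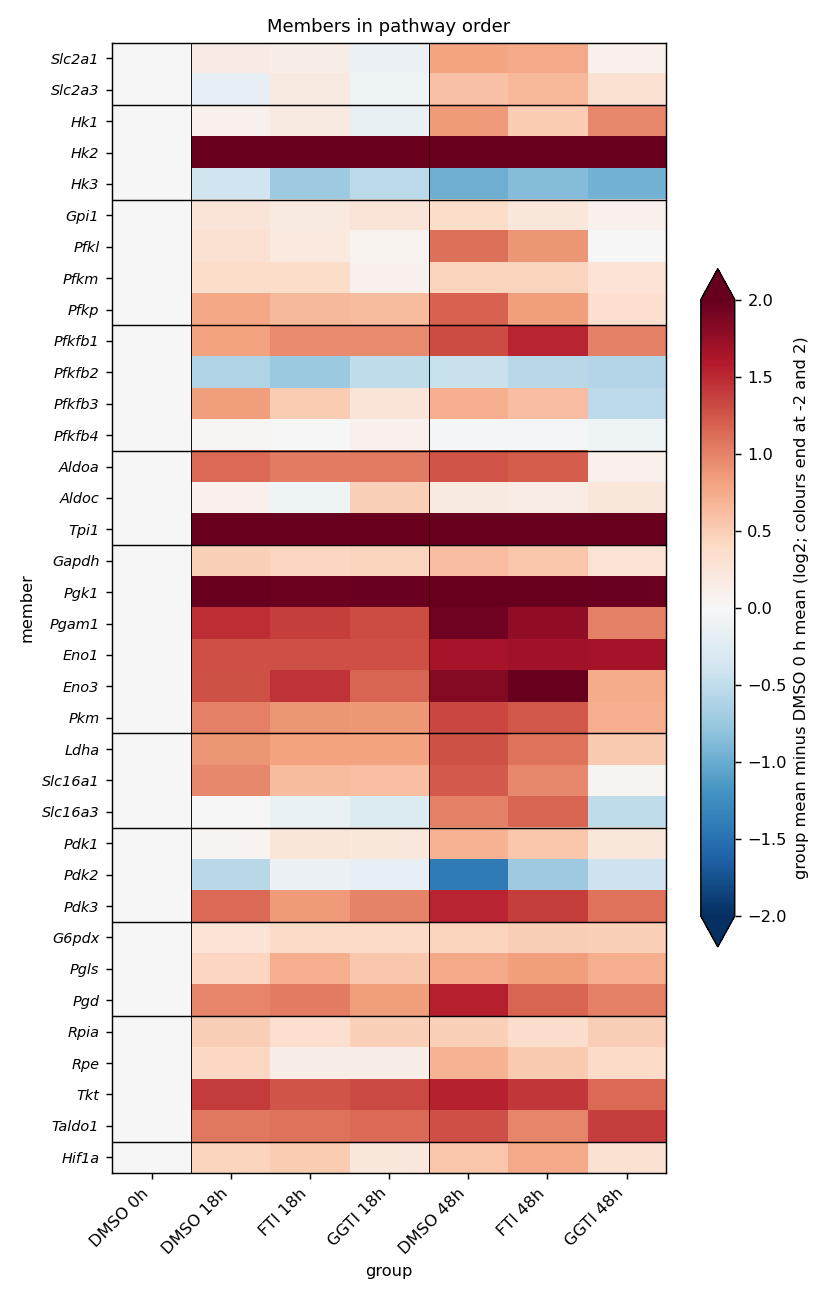
Difference of each group's mean log2 value from the mean of DMSO_0h for the 36 genes tested, in pathway order, with red for higher and blue for lower and colours limited at a difference of 2. The column of GGTI_48h is paler than that of DMSO_48h for Slc2a1, Pfkl, Aldoa and Slc16a1 and similar to it for Eno1 and Taldo1.

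Few changes under FTI passed the test, among these genes as over all genes. The median change of the 36 genes was -0.09 at 18 h and -0.1 at 48 h, against 0 over all genes tested at both times. At 18 h 25 changes were negative and 11 positive, and at 48 h 24 were negative and 12 positive. At 18 h, 1 of the 36 fell, where 3.3% of all genes passed the test (0.682% lower and 2.62% higher), and 6 had an unadjusted p under 0.05. The arrays did not overlap for 8 of the 36 genes, beside 19.7% of all genes. The gene that fell was Hk3 (-0.33 ± 0.09, adjusted p = 0.0479), and the call was lost under 10 of the alternatives tried, including the removal of any 1 of the 6 arrays. At 48 h, 1 gene rose and 1 fell, where 7.66% of all genes passed (4.58% higher and 3.08% lower; 44.5% of those called were higher after centring, against 59.8%), and 7 had an unadjusted p under 0.05. The arrays did not overlap for 13 of the 36 genes, beside 33.3% of all genes. Pfkp read 10.46, 10.74 and 10.63 in FTI_48h against 10.90 to 11.01 in DMSO_48h and fell by 0.35 ± 0.08 (adjusted p = 0.011), a call lost without DMSO_48h replicate 2 or FTI_48h replicate 1. Pdk2 read 7.25, 6.73 and 6.96 against 6.18 to 6.47 and rose by 0.69 ± 0.15 (adjusted p = 0.00612). In both, the arrays of the groups did not overlap.

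Most of the named genes lay among or near the DMSO arrays under FTI at 48 h. Slc2a1 read 11.10, 11.19 and 11.14, Aldoa 10.92, 10.83 and 10.86, and Slc16a3 8.61, 8.79 and 8.38, each overlapping DMSO_48h. Pfkfb3 read 8.07, 7.86 and 7.97 and Eno1 11.58, 11.62 and 11.62, also with overlap. Hk2 (8.93, 9.27 and 9.26), Pgd (8.59, 8.77 and 8.59) and Pgk1 (8.58, 8.73 and 8.66) lay below all 3 DMSO arrays, but their changes of -0.36, -0.39 and -0.22 were not called. Pfkl read 8.39, 8.55 and 8.48, Tkt 8.85, 9.06 and 8.83, and Hif1a 9.73, 10.01 and 10.15. At 18 h under FTI, the arrays read 8.74, 9.16 and 8.78 for Hk2, 7.88, 7.85 and 7.82 for Pfkfb3, and 7.44, 7.64 and 7.68 for Pdk2. For Pfkfb3 and Pdk2 they did not overlap DMSO_18h, and neither change was called (-0.33, adjusted p = 0.0646, and 0.44, adjusted p = 0.118). No interaction of FTI with time was called by limma among the 36 genes, where 0.433% of all genes were, and 2 had an unadjusted p under 0.05. Between 18 and 48 h under FTI, 12 genes rose and 1 fell, where 16.6% of all genes passed the test (9.49% higher and 7.13% lower); Slc16a3 rose by 1.31 and Pgk1 by 0.97.

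**Figure D4:**
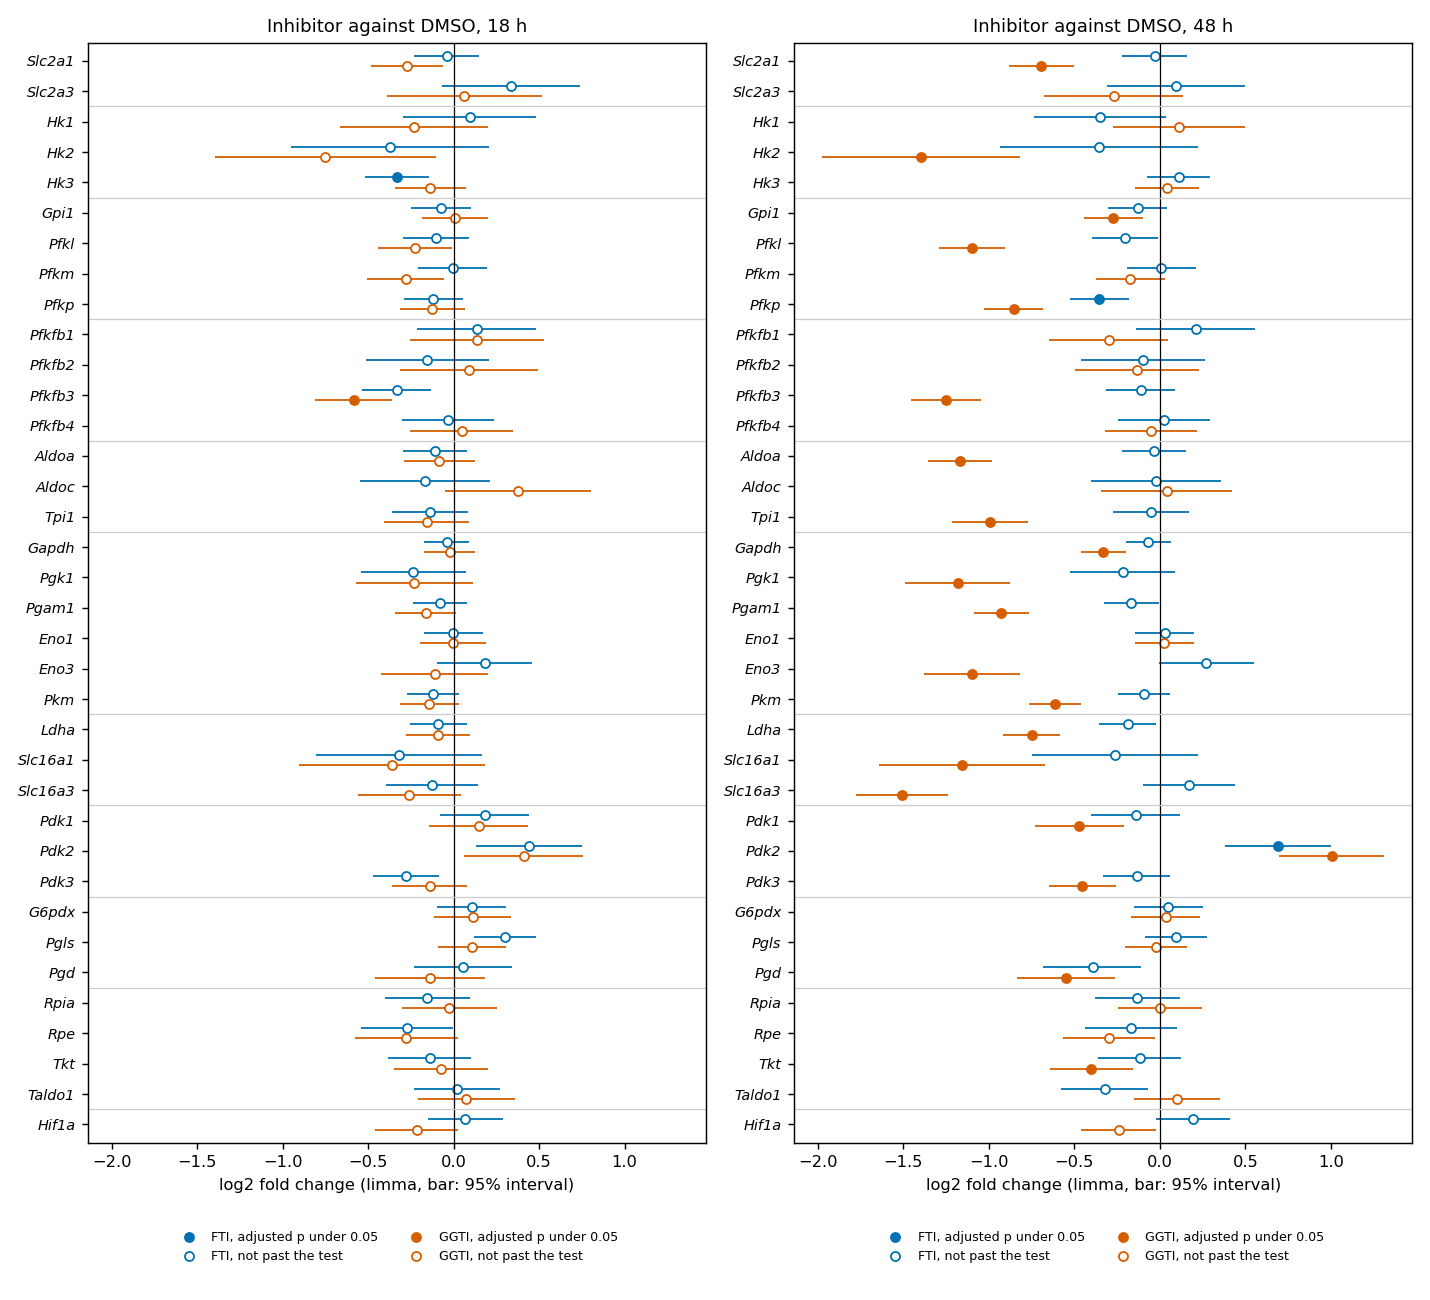
Effect of FTI and of GGTI against DMSO of the same time on each of the 36 genes tested, as log2 fold change with its 95% interval, in 1 panel for 18 h and 1 for 48 h. At 48 h the GGTI points run from -1.51 for Slc16a3 to 1.00 for Pdk2, and filled points passed limma's test at an adjusted p under 0.05.

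The inhibitors were also set against each other at the same time. At 18 h no pathway gene was called by limma between GGTI and FTI, where 2.29% of all genes were (1.36% higher and 0.923% lower), and 5 had an unadjusted p under 0.05. The arrays did not overlap for 11 of the 36 genes, beside 32.2% of all genes. At 48 h, 18 genes were lower under GGTI than under FTI and 1 was higher, where 27.5% of all genes passed the test (13.9% lower and 13.6% higher), and the median difference was -0.32 against -0.02 over all genes. Slc16a3 differed by -1.68 ± 0.13 (adjusted p = 2.27e-08), Eno3 by -1.37, Pfkfb3 by -1.14, Aldoa by -1.13 and Hk2 by -1.04. Hif1a differed by -0.43 ± 0.10 (adjusted p = 0.00388), with arrays at 9.48 to 9.60 under GGTI and 9.73 to 10.15 under FTI. Taldo1 was the gene that stood higher under GGTI (0.42 ± 0.12, adjusted p = 0.0125), a call lost without GGTI_48h replicate 2. Pdk2 did not differ by the test between the inhibitors (0.31, adjusted p = 0.13), nor did Eno1 (adjusted p = 0.987).

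The genes Eno2 and Ldhb, the neuron-type enolase and the heart-type lactate dehydrogenase subunit, lay close to background. Group means of Eno2 ran from 5.22 in DMSO_48h to 5.66 in DMSO_0h and those of Ldhb from 5.44 in GGTI_48h to 5.89 in GGTI_18h, beside negative-control medians of 5.17 to 5.64. In a fit without the limit on dim probe sets, Eno2 was 0.34 higher in GGTI_48h than in DMSO_48h (adjusted p = 0.0497), and Ldhb was not called (-0.12, adjusted p = 0.756).

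Of 73 further genes near the pathway, 58 passed the limit on dim probe sets, and 10 rose and 18 fell under GGTI at 48 h, with a median of -0.04, beside 18.4% of all genes higher and 21.9% lower. Of the regulators and genes of the hypoxia type among them, 5 of 20 tested rose and 8 fell, with a median of -0.01. Txnip and Arrdc4, arrestin-type proteins that limit glucose uptake, had fallen during stimulation, by 1.82 and 2.87 at 48 h, and under GGTI were higher than in DMSO_48h by 1.27 ± 0.09 and 1.63 ± 0.19 (adjusted p = 1.77e-09 and 1.12e-06). Their means were 11.85 and 7.99 in GGTI_48h against 10.58 and 6.35. Under FTI at 48 h both rose as well, by 0.72 and 0.79 (adjusted p = 2.82e-05 and 0.0116). Both were higher again under GGTI than under FTI, by 0.55 and 0.84 (adjusted p = 8.3e-05 and 0.00195).

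Of the genes of the hypoxia type that fell, Egln3, an oxygen-sensing prolyl hydroxylase, had a mean of 7.41 in GGTI_48h against 9.05 in DMSO_48h and fell by 1.65 ± 0.24 (adjusted p = 1.72e-05). Vegfa, the vascular growth factor, fell by 1.07 and Ankrd37 by 0.87. For Egln3 and Ankrd37, the changes under FTI at 48 h were 0.10 and 0.05, and not called. Vegfa stood at -0.45 under FTI at 48 h, without overlap of the arrays, and was not called (adjusted p = 0.221). Of the side branches, the galactokinase gene Galk1 fell by 1.02, while Adpgk, a glucokinase that uses ADP, rose by 1.37 ± 0.17 and the transporter gene Slc2a6 by 1.16 ± 0.16. Myc had means of 11.44, 11.44 and 11.48 in DMSO_48h, FTI_48h and GGTI_48h.

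Markers of other cell types moved with some of these comparisons. Of red cell genes, 2 of 5 tested were higher in GGTI_48h than in DMSO_48h, Hba-a1 from 5.92 to 7.98 and Hba-a2 from 6.16 to 8.16. The log2 of the list's summed level ran from 9.47 to 9.62 against 8.07 to 8.40. Such a sum adds the unlogged values of all probe sets on a list, also the dim ones, so the brightest dominate it. For the myeloid list that is Cst3, and for the CD8 T and NK list in DMSO_48h it is Nkg7. Of B cell genes 1 of 2 tested was higher, Cd79b, with the summed level at 7.75 to 7.83 against 7.46 to 7.80 and Ms4a1 and Pax5 at or under the negative controls in GGTI_48h. Of myeloid genes 1 of 3 tested was higher, Cst3, with the summed level at 11.07 to 11.10 against 10.82 to 10.87; Lyz2, Csf1r and Itgax were under the negative controls and Itgam stood at 6.03 against 4.99. Of CD8 T and NK genes 1 of 3 tested was higher, Cd8b1, and 1 lower, the granule gene Nkg7 from 10.71 to 7.24, with the summed level at 9.28 to 9.56 against 10.90 to 11.13 and Klrd1, Ncr1 and Klrb1c under the negative controls. From the start to 48 h in DMSO, 4 of 5 red cell and 2 of 3 myeloid genes fell, and Cst3 rose. Cd44, which the sort gate used, fell by 0.97 under GGTI at 48 h. The part of these differences in the values of the glycolytic genes was not tested.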

How the data were processed

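Expression was measured on 20 Affymetrix arrays that the labels assign to 7 groups by agent and time. Per the labels' protocols, RNA was prepared with the RNeasy Micro kit and amplified and labelled with NuGEN WTA Pico v2 and Encore Biotin. RMA in Affymetrix Expression Console 1.1 was the authors' normalization, per the submitters' processing notes, and gave the log2 values they deposited. RMA sets all arrays to 1 distribution, so a shift of the whole transcriptome cannot be seen. The array annotation's build is not given in the sources used here. Both deposited tables held the same values to 1.8e-15, and no pair of arrays was a copy (smallest mean absolute difference 0.149).

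Probe sets were kept where at least 2 arrays had them above the array's median, 1 for each symbol (the highest mean), which left 12462 genes. limma 3.58.1 in R 4.3.3 was fitted with 7 group means on all 20 arrays (residual degrees of freedom 13, prior 4.98, residual SD 0.136 in the median), with 2-sided tests and Benjamini-Hochberg adjustment at 0.05 within each of 14 comparisons. The comparison of GGTI_48h with DMSO_0h was added after the data had been seen. The scripts were checked on simulated data. Values after ± are standard errors. A level at or under the mean of its group's negative-control medians was called limited by background.

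The 38 genes and all lists were chosen with earlier results of these data known. Values on every array are given for the gene of each of 11 roles with the largest absolute change in GGTI_48h minus DMSO_48h and for the genes called in GGTI_18h or FTI_48h against DMSO, and for Eno1, chosen after its values were seen. Other pathway genes are named, up to 8, by absolute change in GGTI_48h minus DMSO_48h. Myc is named outside that rule, by its group means only. The alternatives were no limit on dim probe sets, only the arrays compared, centred arrays, array quality weights, trend and robust variances, the mean of all probe sets of a symbol, and each array left out. Promoter windows came from a RefSeq table on GRCm38.p6. A planned comparison of protein sequences within enzyme families was not analysed here. Some cell type markers are not reported here.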

Additional observations from a re-analysis of the deposited data

Results flagged for a closer look

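For 13 genes the effect of GGTI against DMSO differed between 48 and 18 h by limma's interaction test at an adjusted p under 0.05, always with the more negative effect at 48 h. On the log2 scale the interaction was -0.87 for Pfkl, -0.73 for Pfkp and -0.67 for Pfkfb3. It was -1.08 for Aldoa, -0.84 for Tpi1, -0.31 for Gapdh, -0.95 for Pgk1 and -0.76 for Pgam1. It was -0.99 for Eno3, -0.47 for Pkm, -0.66 for Ldha, -1.25 for Slc16a3 and -0.62 for Pdk1. The calls of Gapdh and Pdk1 were lost under 12 and 11 of the alternatives. That of Pfkfb3 was lost without GGTI_18h replicate 1, and those of Pgk1 and Pkm without GGTI_18h replicate 2. With 2 or 3 arrays in each group, no array was tested as standing apart from its group.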

How the results depend on the processing

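Alternatives were computed for the counts of genes called and for each called gene, and no called change reversed its sign. In GGTI_48h against the start, Slc16a1 and Pdk1 were not called, and without DMSO_0h replicate 2 they were, at -0.37 and 0.32. The single gene called for FTI at 18 h was not called (0 genes) with no limit on dim probe sets, with only the arrays compared, with array quality weights, with trend and robust variances, or without any 1 array (0 to 0). For GGTI at 18 h the count of 1 became 0 with only the arrays compared and 2 with trend and robust variances, and ran from 0 to 1 when 1 array was left out. For FTI at 48 h the count of 2 became 4 with only the arrays compared and 4 with quality weights, and ran from 1 to 2 when 1 array was left out. Between 18 and 48 h under GGTI the count of 9 ran from 3 to 6 when 1 array was left out. All other counts stayed within 1.5 times the reported one under every alternative run; for GGTI at 48 h they ran from 20 to 22 when 1 array was left out, and for its interaction with time from 10 to 13. The causes of these moves were not tested, except that fewer arrays enter some fits. No paired analysis was possible because the labels give no replicate numbers, and those printed here only name arrays in sample order. Signal over background limits Hk2 and Pfkfb1 at the start, and Eno2 and Ldhb were too dim for the tested set.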
